A study of Mus musculus with 24 samples.

Results

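Untreated double-positive thymocytes of Elk/Sap KO mice (3 arrays, 1 from each of 3 mice) were compared with those of Sap KO mice (3 arrays, 3 mice). These 6 of the series' 24 arrays ask what the loss of Elk adds at rest to cells that already lack Sap. Both genotypes lack Sap, so a difference between them is read against a Sap-deficient background and not against wild-type. In total 304 of 18193 genes had lower messenger RNA signal in Elk/Sap KO cells and 65 had higher signal at an adjusted p under 0.05. The falls included the neighbouring genes Rbp7 and Nmnat1, major histocompatibility class I genes, the CD8 chain Cd8a and the interferon pathway gene Irf9. Without 1 Elk/Sap KO array that stands apart, 290 genes were lower and 44 higher. The count depends on the fit. It was 0 with the 6 arrays fitted alone and 1 with an array measure of RNA degradation as a covariate. Without the array of Sap KO mouse 1 it was 15, and the class I genes, Cd8a and Irf9 did not pass.

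Elk-1 (gene Elk1), Sap-1 (gene Elk4) and Net (gene Elk3) are the ternary complex factors. They are ETS-family proteins that bind DNA beside serum response factor (Srf), and ERK kinases activate them by phosphorylation. Their classical targets are immediate early genes, while the other partners of Srf, the MRTF proteins, act on cytoskeletal genes. Double-positive (DP) T cells are the CD4+ CD8+ stage of the thymus, where cells are selected on the strength of T cell receptor signals, and Sap-1 is known for its part in positive selection.

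All mice were male, of strain Black 6J and 8 weeks old. DP T cells were sorted from thymus with antibodies to CD4 and CD8 and rested for 2 h in RPMI medium with 10% FCS. They were then kept for 30 min on uncoated plates (untreated) or on plates coated with anti-CD3, an antibody to the receptor complex (stimulated). Elk/Sap KO, Sap KO, Elk KO and wild-type mice each gave 3 untreated and 3 stimulated arrays, and the mouse numbers in the labels tie both states to the same animals. The labels give no allele, deleted region or cell type of deletion. Signals are log2 values on Mouse430_2 arrays, on which a difference of 1 is a 2-fold difference, and the number of arrays limits their precision. A gene is called, and said to have risen or fallen, when its limma adjusted p was under 0.05.

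The untreated array of Elk/Sap KO mouse 2 stood apart from the others. The interquartile range of its log2 deviations from the probe set medians was 0.782, against 0.182 to 0.383 in the other 23 arrays. Its correlation with the other 5 arrays of the comparison was 0.948 to 0.955, while the Sap KO arrays correlated with each other at 0.995 to 0.997. Results are also given without it where this changes a call among the genes named or moves a value. Further measures moved with the groups. The gap between the 3′ and the 5′ probe sets of the actin gene Actb, a measure that widens with RNA degradation, was 0.651, 0.808 and 0.579 log2 in Elk/Sap KO mice 1, 2 and 3, against 0.192, 0.166 and 0.24 in Sap KO mice 1, 2 and 3. The dap spike-in, a bacterial RNA, read 9.77, 9.25 and 9.32 in the Elk/Sap KO arrays, against 6.48, 9.11 and 6.64 in the Sap KO arrays. Only Sap KO mouse 2 thus shares the high dap level of the Elk/Sap KO arrays. With the Actb measure as a covariate 1 gene was called, Nmnat1 (log2 −1.64, adjusted p = 0.0395), and with high or low dap as a covariate 24 genes were. Among high-dap arrays alone 1 gene was called, Cfp (−1.48, 0.0472). With the Actb covariate Rbp7 differed by −2.13 (limma adjusted p = 0.112) and Cfp by −1.10 (adjusted p = 0.297). The Actb values of the 2 groups do not overlap, so the loss of Elk and this measure cannot be told apart in these values. Among high-dap arrays, where Sap KO mouse 2 is the only array of its group, Rbp7 differed by −1.75 and Nmnat1 by −1.40. Other large falls varied in size with the fit. Over 22 alternative fits, the Actb and dap fits among them, Max ranged from −2.08 to −0.57 and Ugcg from −1.83 to −0.45. Over the same fits Bcat2 ranged from −2.31 to −1.38 and Ifi27l2a from −1.68 to −1.12.

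**Figure D1:**
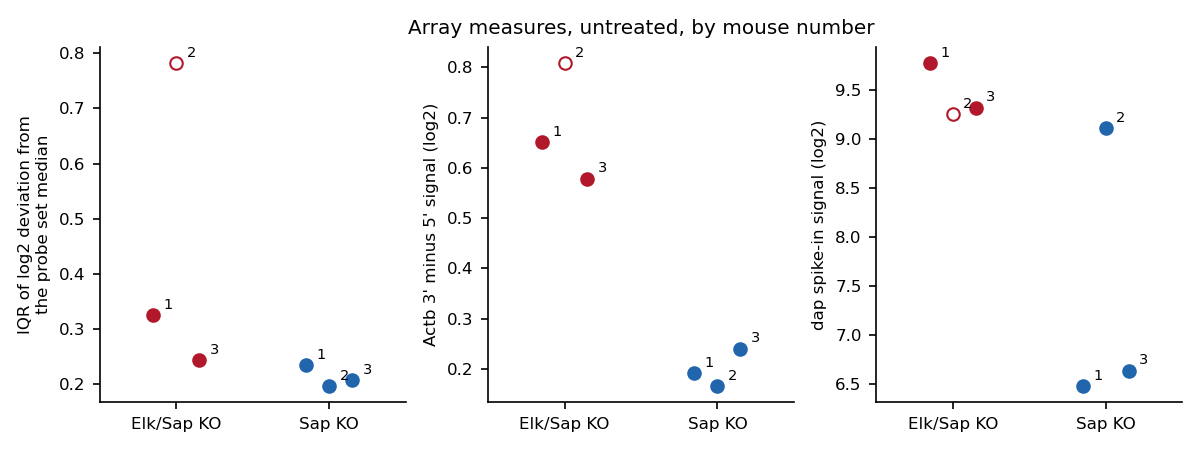
Spread of log2 deviations (left), Actb 3′ minus 5′ signal (middle) and dap spike-in signal (right) in the 3 untreated Elk/Sap KO arrays (red, mouse 2 open) and the 3 untreated Sap KO arrays (blue), with mouse numbers beside the points. The Elk/Sap KO arrays lie at 0.579 to 0.808 for Actb and the Sap KO arrays at 0.166 to 0.24, while dap in Sap KO mouse 2, at 9.11, lies with the Elk/Sap KO arrays.

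The labels were checked first. Elk4, the gene of Sap-1, read 7.19, 6.13 and 7.85 in Elk/Sap KO arrays, against 7.01, 6.88 and 7.27 in Sap KO arrays. Both groups were far below the Elk KO and wild-type means of 10.69 and 10.47. The Elk/Sap KO and Sap KO values overlap (log2 0.00 ± 0.27, adjusted p = 0.995). Elk1 read 4.54, 4.74 and 4.14 in Elk/Sap KO arrays, against 4.90, 5.04 and 5.07 in Sap KO arrays. The groups do not overlap, but all 6 values are near or below the highest signal of Xist (5.07), which male cells do not express, and the difference was not called (log2 −0.53 ± 0.17, adjusted p = 0.0941; 0.0541 without mouse 2). This probe set is thus a weak check of the Elk label, and whether it lies inside the deleted part is not known here. Elk3 read 7.73, 6.10 and 8.28 in Elk/Sap KO arrays, against 8.38, 8.19 and 8.50 in Sap KO arrays. Its log2 difference of −0.99 (adjusted p = 0.0811) rests on mouse 2 and is −0.35 without it. Srf differed by −0.18 (adjusted p = 0.551). The 4 measured sex-linked genes, a check of the male label, had a median difference of −0.35 (−0.16 without mouse 2), and none was called. Their summed linear signal was 432 in Elk/Sap KO mouse 2, against 956 to 1096 in the other 5 arrays. The DP label was borne out by high signal in all 6 arrays of Rag1 (12.89 to 13.21), which rearranges receptor genes, Cd8b1 (12.52 to 12.93), Cd3d (12.48 to 12.76) and Dntt (12.52 to 12.78). The largest of their 4 differences was that of Cd8b1 (−0.17), and none was called. Other DP genes differed more. All 22 measured members of the DP thymocyte list had differences below 0, with a median of −0.39, and 1 of them, Cd8a, fell.

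Loss of Elk on the Sap-deficient background was accompanied mainly by lower signals: 2.03% of genes were called, 0.357% as higher and 1.67% as lower. The 304 lower genes had a median log2 difference of −0.78 and the 65 higher genes one of 0.66, with 53 and 5 of them beyond a 2-fold difference. Elk/Sap KO arrays lay wholly above or wholly below Sap KO arrays for 365 of the 369 called genes. Over all genes this was so for 6.78% above and 9.09% below, and at an unadjusted p under 0.05 there were 4059 genes. Lower calls were carried by genes with clear signal: 277 of the 304, but 35 of the 65 higher genes, had a mean of at least 6 log2. The median difference over the 8361 genes with such a mean was itself −0.20 (−0.10 without mouse 2), against 0.04 over all genes (−0.01 without mouse 2). When the arrays were quantile normalized again, that median was −0.04 and the calls split into 129 higher and 133 lower, so the lean towards lower signal depends on the scaling.

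The 3 Elk/Sap KO mice did not contribute equally. Over the 304 lower genes the median difference from the Sap KO mean was −0.80 in mouse 1, −0.97 in mouse 2 and −0.49 in mouse 3. Over the 65 higher genes it was 0.64, 0.86 and 0.46 in the same mice. Mouse 3 thus lay nearest to the Sap KO arrays in both sets. Without mouse 2, 334 genes were called (1.84%), 44 as higher (0.242%) and 290 as lower (1.59%), of which 168 were among the 369, or 45.5% of the calls from all arrays and 50.3% of those without it. All 369 genes kept their sign. Leaving out another array moved the count more: it was 15, 128 and 44 without Sap KO mouse 1, 2 and 3, and 210 and 4675 without Elk/Sap KO mouse 1 and 3. Of the 56 called genes named here, 6 were called whichever of the 6 arrays was left out: Rbp7, Nmnat1, Cfp, Ifi27l2a, Mdm1 and Depp1. The other 50 lost their call without Sap KO mouse 1, and other single arrays removed the call of many of them too. With the 6 arrays fitted alone no gene was called by limma (1248 at an unadjusted p under 0.05), and with 5 arrays, without mouse 2, 74 were.

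The largest fall was that of Rbp7, which encodes a cellular retinol-binding protein. It read 5.65, 6.18 and 5.82 in Elk/Sap KO arrays, against 7.96, 7.64 and 8.32 in Sap KO arrays (log2 −2.09 ± 0.24, adjusted p = 0.000222). Nmnat1, which encodes the nuclear enzyme that makes NAD, had the smallest p of all and read 8.63, 9.30 and 8.79 in Elk/Sap KO arrays, against 10.54, 10.30 and 10.45 in Sap KO arrays (log2 −1.53 ± 0.16, adjusted p = 7.87e-05). In both genes every Elk/Sap KO array was more than 1 log2 unit below the Sap KO mean, mouse 2 being the highest of its group. The second Nmnat1 probe set differed by −1.46. Both genes also fell without mouse 2, by log2 −2.24 for Rbp7 (adjusted p = 0.000164) and −1.72 for Nmnat1 (adjusted p = 1.86e-06). They lie next to each other among the protein-coding genes of chromosome 4. The next one beyond Rbp7, Ube4b, a ubiquitin chain assembly factor chosen here for its position, differed by log2 −0.70 (adjusted p = 0.046) and by −0.92 without mouse 2 (adjusted p = 0.00899). It lost its call without any of the Sap KO arrays or Elk/Sap KO mouse 1 (highest adjusted p = 0.215). Beyond Nmnat1, the next measured gene, Lzic, differed by −0.24 (adjusted p = 0.221).

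The other genotypes place this pair differently. In the mice with Sap, Nmnat1 averaged 6.20 in Elk KO and 6.40 in wild-type arrays, and Rbp7 4.58 in Elk KO and 4.38 in wild-type arrays. The Elk/Sap KO means of 8.91 and 5.89 thus lie below the Sap KO means of 10.43 and 7.97, but above those of both genotypes that have Sap. Rbp7 is below the highest Xist signal in all Elk KO and wild-type arrays, so a fall could not be seen there. Ube4b did not share the order of this pair. Its means were 8.44 in Elk/Sap KO and 9.14 in Sap KO arrays, against 8.51 in Elk KO and 9.18 in wild-type arrays. Gcsh, the H protein of the glycine cleavage system, also separates the genotypes. It read 8.39, 8.64 and 7.22 in Elk/Sap KO arrays and 9.20, 9.27 and 9.24 in Sap KO arrays, against 9.14, 9.24 and 8.98 in Elk KO arrays and 7.01, 6.71 and 7.07 in wild-type arrays. Its resting difference between Elk/Sap KO and Sap KO was not called with all arrays (log2 −1.15, adjusted p = 0.0549) and was called without mouse 2 (−1.43, 0.0237), while Gcsh was higher in Elk KO than in wild-type arrays (log2 2.19, adjusted p = 0.00316).

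The difference between these effects was tested directly, as the Elk/Sap KO minus Sap KO difference less the Elk KO minus wild-type difference. It was called for 3 genes, 0.0165% of those tested (1076 at an unadjusted p under 0.05). These were Gcsh (log2 −3.34 ± 0.44, adjusted p = 0.00289), Rbp7 (−2.28 ± 0.34, 0.0126) and Nmnat1 (−1.33 ± 0.23, 0.0493). The Elk KO minus wild-type difference was 0.20 for Rbp7 (adjusted p = 0.999) and −0.20 for Nmnat1 (adjusted p = 0.965). The Rbp7 value is set against signals that are not above the Xist level and does not measure how far the effects differ. For Gcsh the 2 differences have opposite signs. Without mouse 2, 4 genes were called, and leaving out any of the 12 arrays in turn gave 1 to 4.

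**Figure D2:**
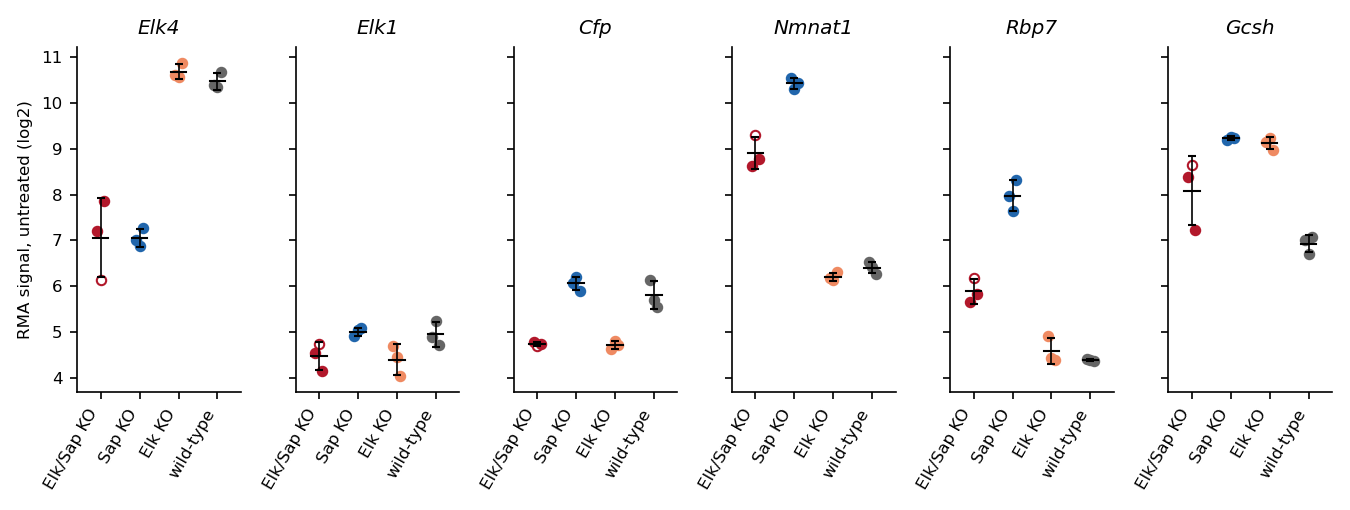
RMA signal (log2) of Elk4, Elk1, Cfp, Nmnat1, Rbp7 and Gcsh in untreated arrays of Elk/Sap KO (red, mouse 2 open), Sap KO (blue), Elk KO (orange) and wild-type mice (grey), 3 arrays each, with the mean (line) and SD (bar). Nmnat1 and Rbp7 are highest in Sap KO arrays and lowest in Elk KO and wild-type arrays, and Cfp is low in both genotypes without Elk.

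Cfp, which encodes properdin, a positive regulator of the alternative complement pathway, is the protein-coding neighbour of Elk1 on the X chromosome. It read 4.77, 4.69 and 4.73 in Elk/Sap KO arrays, against 6.06, 6.21 and 5.90 in Sap KO arrays (log2 −1.33 ± 0.17, adjusted p = 0.000622). The 3 Elk/Sap KO values lie within 0.1 of each other, near the Xist level, and none reaches the lowest Sap KO value. Cfp was also lower in Elk KO than in wild-type arrays (log2 −1.09, adjusted p = 0.00949) and in stimulated Elk/Sap KO than in stimulated Sap KO arrays (−1.17, 0.00196). The second, dimmer Cfp probe set differed by 0.10. Over all genes 1.67% fell, and 277 of the 8361 with a mean of at least 6 log2. Of the 40 genes nearest to Elk1, 20 on each side, 23 were on the array, 2 of which fell: Cfp and Usp11, a deubiquitinase (log2 −0.95 ± 0.20, adjusted p = 0.0184). Of the 34 measured of the 40 nearest to Elk4, 2 fell: Ikbke, a kinase of innate immune signalling (log2 −0.72, adjusted p = 0.0245), and Rassf5, a Ras and Rap1 effector that acts in T cell adhesion (−0.65, 0.0305). Neither of the last pair, nor Usp11, was called without mouse 2 (adjusted p 0.0626, 0.0658 and 0.0514).

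The start regions of the 3 genes with the smallest p, Nmnat1, Rbp7 and Cfp, are shown to let their sequence be read beside these values. They are RefSeq windows of GRCm38.p6 from 250 bases before to 50 after the annotated start, 5′ to 3′ on the minus strand of the genome, at chr4:149485161-149485460 for Nmnat1 (the first of its 2 windows), chr4:149454919-149455218 for Rbp7 and chrX:20931506-20931805 for Cfp. Capitals mark the ETS core motif CCGGAA or its reverse complement TTCCGG.
Nmnat1: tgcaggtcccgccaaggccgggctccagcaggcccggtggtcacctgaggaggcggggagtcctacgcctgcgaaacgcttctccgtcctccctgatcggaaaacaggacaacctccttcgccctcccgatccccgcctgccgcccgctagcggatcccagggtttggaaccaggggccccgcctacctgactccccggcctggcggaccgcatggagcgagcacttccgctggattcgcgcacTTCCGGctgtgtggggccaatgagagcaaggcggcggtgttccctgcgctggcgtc
Rbp7: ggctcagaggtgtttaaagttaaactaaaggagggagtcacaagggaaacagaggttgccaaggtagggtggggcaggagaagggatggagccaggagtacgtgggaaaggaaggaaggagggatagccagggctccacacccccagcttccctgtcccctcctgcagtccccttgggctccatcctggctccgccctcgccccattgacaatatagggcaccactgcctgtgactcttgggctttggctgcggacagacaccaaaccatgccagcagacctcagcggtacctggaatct
Cfp: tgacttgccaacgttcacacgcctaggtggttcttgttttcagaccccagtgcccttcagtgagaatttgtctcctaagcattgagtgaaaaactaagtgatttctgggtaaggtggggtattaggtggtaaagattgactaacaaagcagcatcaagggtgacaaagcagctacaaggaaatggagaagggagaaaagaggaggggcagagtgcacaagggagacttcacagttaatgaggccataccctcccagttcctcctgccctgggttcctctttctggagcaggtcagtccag
Nmnat1 holds 1 such motif, and these letters are not in the windows of Rbp7 and Cfp. A CArG box, the binding motif of Srf, is in none of the 3. Both motifs were searched on both strands, and their letters cannot overlap. A match describes the letters only.

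Windows were found for 14368 of the 18193 genes. The ETS core was in 80 of 247 genes that fell (32.4%) and 7 of 54 that rose (13.0%), against 24.1% of all windows and 36.7% of those of genes with a mean of at least 6 log2 over the resting genotypes and the stimulated Elk/Sap KO and Sap KO arrays. A CArG box was in 6 of the 247 (2.43%) and 0 of the 54, against 1.59% of all windows. Without mouse 2 the shares among 235 genes that fell were 32.3% for the ETS core and 5.11% for the CArG box. The share with an ETS core among the genes that fell thus lies between those of all genes and of genes with clear signal.

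The other large falls were in genes of varied function. Max, the obligate partner of Myc, read 6.03, 4.91 and 6.38 in Elk/Sap KO arrays, against 7.83, 7.24 and 7.56 in Sap KO arrays (log2 −1.77 ± 0.32, adjusted p = 0.00915). The groups do not overlap, and mouse 2 is the lowest array; without it the difference is −1.34. Rab5c, a small GTPase of early endosomes, read 6.53, 6.95 and 7.29 in Elk/Sap KO arrays, against 8.66, 8.51 and 8.44 in Sap KO arrays (log2 −1.61 ± 0.29, adjusted p = 0.00962). Ap2b1, a subunit of the clathrin adaptor, fell by log2 1.65 (adjusted p = 0.0178), although 1 of its 2 other probe sets differed by 0.09. Dimmer probe sets of Rassf2, Ugcg and Traf6, named next, ranged from −1.40, −1.26 and −1.42 up to 0.30, 0.19 and 0.16. The remaining ones were Bcat2, the mitochondrial branched-chain aminotransferase (−1.70), Rassf2, a Ras-association protein (−1.62), Ugcg, which makes glucosylceramide (−1.57), Traf6, a ubiquitin ligase of innate receptor signalling (−1.48), Mdm1, a centriole protein (−1.47), Leng8 (−1.36) and the interferon-inducible gene Ifi27l2a (−1.35). Their adjusted p values ran from 0.0026 for Mdm1 to 0.0305 for Bcat2. All 12 of the largest falls, Rbp7 and Nmnat1 among them, were also called without mouse 2, with log2 differences of −2.25 (Bcat2) to −0.93 (Traf6).

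The rises were fewer and smaller. Depp1, a gene induced by FoxO factors, read 9.62, 9.58 and 8.81 in Elk/Sap KO arrays, against 7.91, 7.56 and 7.62 in Sap KO arrays (log2 1.64 ± 0.24, adjusted p = 0.00238). E2f5, a repressive member of the E2F family, read 9.59, 9.58 and 8.57 in Elk/Sap KO arrays, against 8.07, 8.07 and 7.95 in Sap KO arrays (log2 1.22 ± 0.21, adjusted p = 0.00785). In both genes mouse 3 was the lowest Elk/Sap KO array yet lay above all Sap KO arrays. The 2 dimmer E2f5 probe sets differed the other way, by −0.41 and −0.31. Lor, the cornified envelope protein loricrin, rose by log2 1.21 (adjusted p = 0.0103), Csdc2, an RNA-binding protein, by 1.15 (adjusted p = 0.034), and Dennd6b, an exchange factor for Rab proteins, by 1.06 (adjusted p = 0.0168), with its 3 other probe sets at −0.65 to 0.43. Dzip3, a ubiquitin ligase, read 7.86, 7.78 and 7.82 in Elk/Sap KO arrays, against 6.91, 6.96 and 7.14 in Sap KO arrays (log2 0.82 ± 0.15, adjusted p = 0.0103). The 5 other Dzip3 probe sets differed by −0.37 to 0.43, 3 of them in the other direction. Uri1, a prefoldin-like protein (0.88), Tnpo3, which imports splicing factors into the nucleus (0.93), Aif1l, an actin-binding protein (0.96), Fbxo36 (0.87), Pnmt, the enzyme that makes adrenaline (0.86), and Pou5f2 (0.83) were also called. Without mouse 2, Csdc2, Tnpo3 and Fbxo36 were not (adjusted p 0.0586, 0.0537 and 0.0752).

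**Figure D3:**
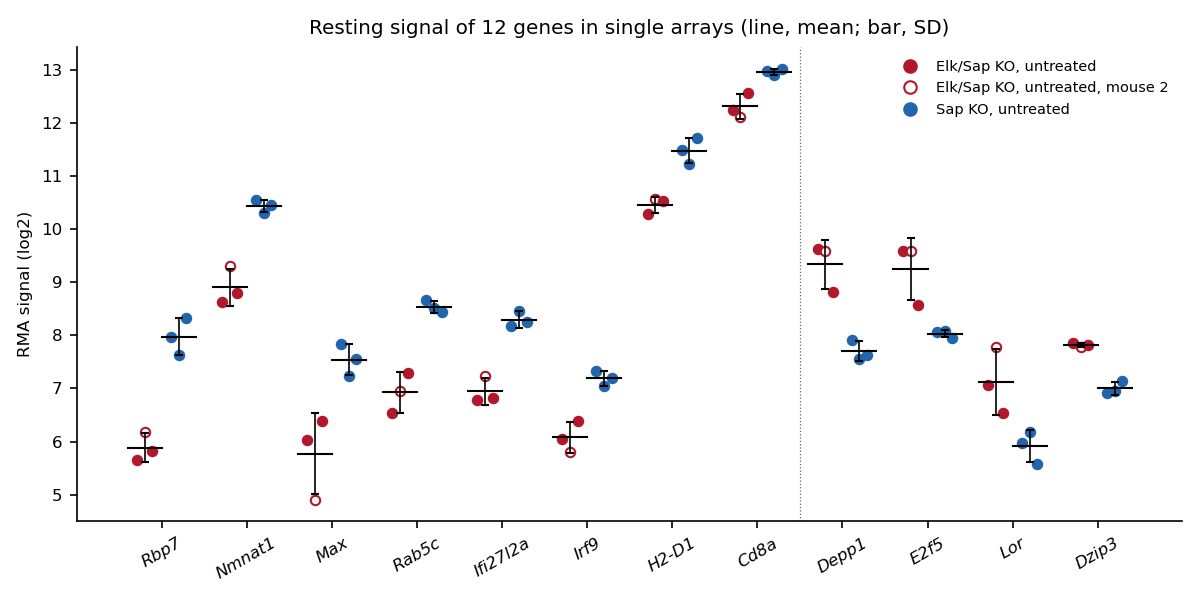
RMA signal (log2) of 8 genes that fell (left of the dotted line) and 4 that rose (right) in single untreated arrays of Elk/Sap KO (red, mouse 2 open) and Sap KO mice (blue), with the mean (line) and SD (bar) of 3 arrays. The 2 groups do not overlap for any of the 12 genes, and mouse 2 is the lowest array for Max.

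Genes of positive selection and maturation had the lowest median of the lists examined. Of 27 measured members 4 fell and 0 rose, with a median log2 difference of −0.62, against −0.20 over genes with clear signal. For this and the lists that follow, the share that fell is 1.67% of all genes, and 277 of the 8361 with clear signal. The class I genes H2-D1 and H2-K1, which present peptides to CD8 T cells, were among them. H2-D1 read 10.28, 10.56 and 10.52 in Elk/Sap KO arrays, against 11.49, 11.23 and 11.71 in Sap KO arrays (log2 −1.02 ± 0.20, adjusted p = 0.0149). H2-K1 fell by log2 0.96 (adjusted p = 0.0178). Every Elk/Sap KO value was below every Sap KO value for both, but their probe sets can hybridise with related class I genes, so the members cannot be told apart with certainty. The 8 other H2-D1 probe sets differed by −1.07 to 0.14, 5 of them below 0. The 3 other H2-K1 probe sets differed by −0.88 to 0.02, 2 of them below 0. Ccr7, the chemokine receptor that guides selected cells to the medulla, read 6.67, 6.70 and 6.88 in Elk/Sap KO arrays, against 7.60, 7.74 and 7.81 in Sap KO arrays (log2 −0.96 ± 0.24, adjusted p = 0.042), and Gimap6, a GTPase of lymphocyte survival, fell by log2 0.53 (adjusted p = 0.0424), though its second probe set differed by 0.18. Without mouse 2, H2-D1 and H2-K1 were still called and Ccr7 and Gimap6 were not (adjusted p 0.0669 and 0.114), while Gimap3, of the same GTPase family, was (log2 −0.94, adjusted p = 0.0315). In sorted bulk cells, fewer cells of a kind and less RNA per cell cannot be told apart.

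Of 22 measured DP thymocyte genes 1 fell, 0 rose and all 22 differences were below 0, with a median of −0.39 (−0.24 without mouse 2). Cd8a, a chain of the CD8 co-receptor, read 12.25, 12.12 and 12.56 in Elk/Sap KO arrays, against 12.98, 12.90 and 13.01 in Sap KO arrays (log2 −0.66 ± 0.14, adjusted p = 0.0184). The groups do not overlap and Cd8a was called without mouse 2 (log2 −0.56, adjusted p = 0.0468), whereas Cd8b1, the other chain, differed by −0.17 (adjusted p = 0.371). Cd4 read 10.66, 11.42 and 10.77 in Elk/Sap KO arrays, against 11.56, 11.38 and 11.74 in Sap KO arrays. Mouse 2 lies within the Sap KO range there, and Cd4 was called without it (log2 −0.84, adjusted p = 0.0261) but not with it (adjusted p = 0.0994). The dimmer Cd4 probe set read 9.58, 8.75 and 9.84 in Elk/Sap KO arrays, against 11.24, 10.97 and 11.27 in Sap KO arrays. There the groups do not overlap, mouse 2 is the lowest, and the difference of −1.77 passed with all arrays (adjusted p = 0.00533 over all probe sets). Among 27 receptor signalling components 2 fell and 0 rose, with a median of −0.39: Cblb, a ubiquitin ligase that restrains receptor signals (log2 −0.80 ± 0.17, adjusted p = 0.0178), and the CD3 chain Cd3g (log2 −0.52 ± 0.12, adjusted p = 0.035). Without mouse 2 the adjusted p was 0.0392 for Cblb and 0.09 for Cd3g. Without mouse 2, Cd3e (log2 −0.93, adjusted p = 0.0289; 0.0578 with it) and Csk, a kinase that restrains Lck (−0.77, 0.0468), were called as well.

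Srf target lists were next, and their medians stand beside the −0.20 of genes with clear signal. Of 24 TCF-SRF immediate early genes 1 fell and 0 rose (median −0.46). This was Zfp36, which encodes tristetraprolin, a protein that destabilises messenger RNAs, at 8.05, 8.60 and 8.56 in Elk/Sap KO arrays, against 9.10, 8.99 and 9.17 in Sap KO arrays (log2 −0.68 ± 0.17, adjusted p = 0.0436). The groups do not overlap. Without mouse 2 Zfp36 was called again (adjusted p = 0.0323), and the early response gene Ier2 (log2 −1.01, adjusted p = 0.0238) and the ERK phosphatase Dusp5 (−0.82, 0.0225) were called as lower too. Of 24 MRTF-SRF cytoskeletal genes 1 fell and 0 rose (median −0.33): Pfn1, the actin monomer-binding profilin, at 11.32, 10.68 and 10.97 in Elk/Sap KO arrays, against 12.08, 12.21 and 12.06 in Sap KO arrays (log2 −1.13 ± 0.28, adjusted p = 0.0375). Without mouse 2 Pfn1 was not called (adjusted p = 0.0825), and 4 others were called as lower, namely Wdr1, a cofactor of actin disassembly (−0.94, 0.0134), Coro1a, an actin regulator of T cells (−0.66, 0.0404), Cnn2, an actin-binding calponin (−1.49, 0.0164), and Zyx, a focal adhesion protein (−0.97, 0.022). Dimmer probe sets of 2 of them passed with all arrays, adjusted over all probe sets: both others of Wdr1 (−1.18, adjusted p = 0.0108, and −0.94, adjusted p = 0.025) and 1 of 2 others of Coro1a (−0.96, adjusted p = 0.0463). Of 22 ERK cascade genes the adaptor Dok2, an inhibitor of Ras signalling, fell (log2 −0.68 ± 0.16, adjusted p = 0.0281; median −0.42), and without mouse 2 Dok2 and Dusp5 were called. In the Egr, Nab and Id axis (12 genes), the AP-1 family (14), the NF-kB targets (16) and the TCF and Srf family (7) no member passed the test with all arrays, and the medians were −0.25, −0.19, −0.24 and −0.18. Without mouse 2 the medians of these 4 lists were −0.28, −0.37, −0.39 and −0.35, and Tcf3, an E protein, was called as lower (−0.83, 0.0314).

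Interferon response genes gave 2 falls and 0 rises among 27 measured members, with a median of −0.27, near the −0.20 of genes with clear signal. Irf9, the DNA-binding subunit of the complex that type I interferon activates, read 6.04, 5.81 and 6.39 in Elk/Sap KO arrays, against 7.33, 7.04 and 7.19 in Sap KO arrays (log2 −1.11 ± 0.18, adjusted p = 0.00387). Usp18, which restrains the interferon receptor, read 4.87, 4.59 and 4.94 in Elk/Sap KO arrays, against 6.10, 5.99 and 6.15 in Sap KO arrays (log2 −1.28 ± 0.25, adjusted p = 0.015). Every Elk/Sap KO array was below every Sap KO array for both genes, and both were called without mouse 2, with differences of −0.97 for Irf9 and −1.18 for Usp18, and so was the interferon-inducible gene Ifi27 (−0.77, 0.0198). Usp18 is below the highest Xist signal in all 3 Elk/Sap KO arrays. The wild-type means, 6.84 for Irf9 and 4.71 for Usp18, lie below those of Sap KO, 7.19 and 6.08.

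The remaining lists had 0 to 2 members called each. The medians of the p53 and apoptosis, glycolysis, unfolded protein and splicing lists were −0.32, −0.29, −0.26 and −0.35. Of 21 p53 and apoptosis genes the death mediators Bid (log2 −0.87, adjusted p = 0.0178) and Casp8 (−0.58, 0.0278) fell, and of 17 glycolysis genes Slc2a3, a glucose transporter (−1.09, 0.0207). Of 20 unfolded protein and oxidative stress genes Edem1, which directs misfolded glycoproteins to degradation, fell (−0.42, 0.0414). The cell cycle list (32 genes) had the cyclin Ccne1 higher (0.72, 0.0414) and its kinase Cdk2 lower (−0.66, 0.0449), with a median of −0.04. Of 37 splicing factors Pnisr, a speckle protein, fell (−1.08, 0.0178), while the brightest probe set of Son, a speckle scaffold, was higher (0.52, 0.0359) and its 6 dimmer ones differed by −0.46 to −1.04. Mrpl52 was the sole call among 75 mitochondrial ribosomal genes (0.62, 0.0459) and the respiratory subunit Ndufa12 among 82 oxidative phosphorylation genes (0.43, 0.029), both higher. The 3 other Mrpl52 probe sets differed by −0.19 to 0.05, the 3 other Ndufa12 probe sets by −0.33 to 0.36 and the second Cdk2 probe set by 0.23. The medians of these 2 lists were 0.03 and 0.13. No member passed among 49 cytosolic ribosomal, 39 proteasome, 19 heat shock, 13 long non-coding RNA and 2 histone genes, with medians of 0.06, −0.04, −0.09, 0.08 and 0.21. Without mouse 2 Bid (adjusted p = 0.0468) and Pnisr (0.0467) were called and the other 8 of these 10 genes were not. Calls that appeared without it were the death mediator Bbc3 (−0.68, 0.0427), the glycolytic enzyme Pfkl (−0.99, 0.0365) and the respiratory subunit Ndufb3 (0.42, 0.0482).

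**Figure D4:**
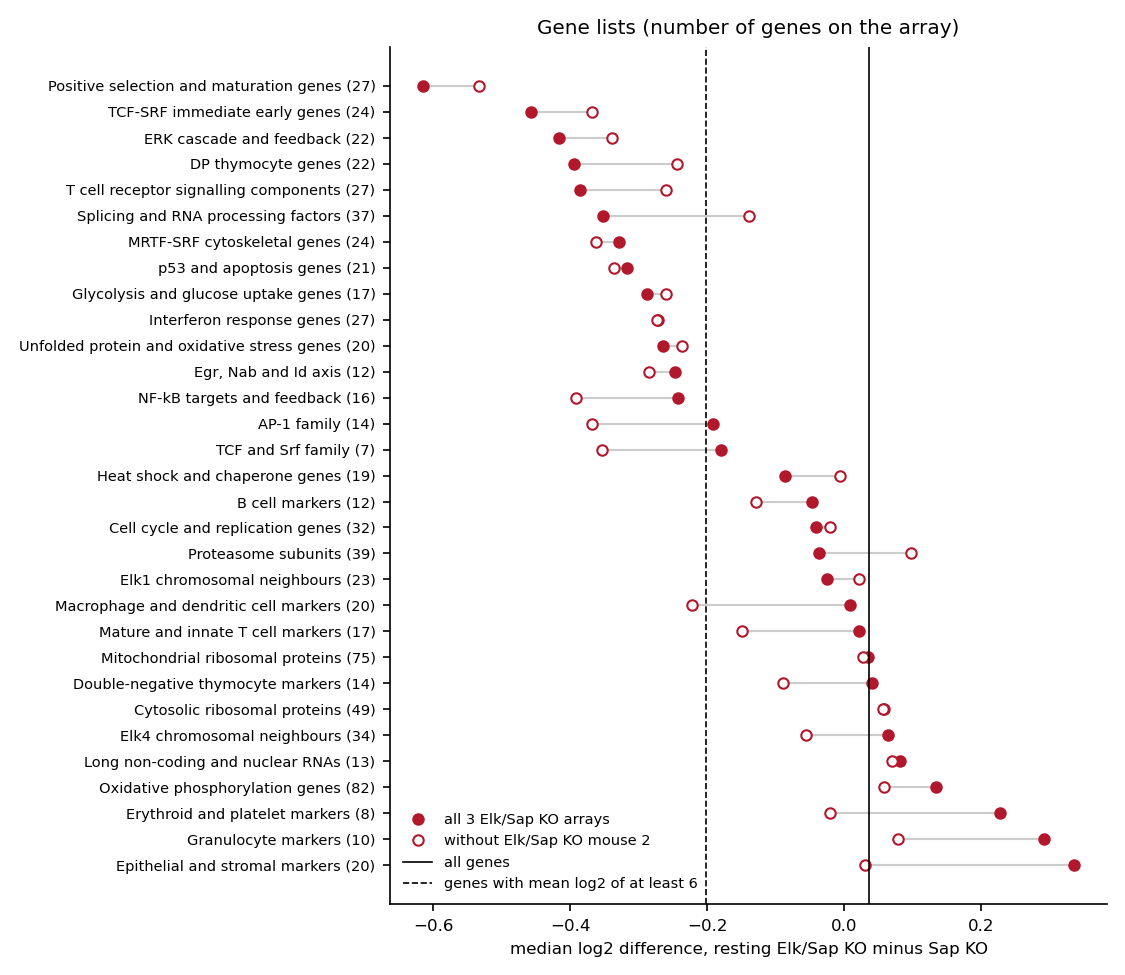
Median log2 difference (resting Elk/Sap KO minus Sap KO) of each gene list with all 3 Elk/Sap KO arrays (filled) and without mouse 2 (open). The histone and sex-linked lists are not shown. The number of genes on the array is in parentheses, and the lines mark the medians of all genes (solid, 0.04) and of genes with a mean of at least 6 log2 (dashed, −0.20). Positive selection genes lie lowest, at −0.62, and granulocyte, erythroid and epithelial markers lie highest with all arrays and near 0 without mouse 2.

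Markers of other cells that a thymus sort could hold were read in the same way. None passed the test among 12 B cell markers, 20 markers of macrophages or dendritic cells, 10 granulocyte markers, 8 for erythroid cells or platelets and 14 for double-negative thymocytes. The medians were −0.05, 0.01, 0.29, 0.23 and 0.04, and without mouse 2 they were −0.13, −0.22, 0.08, −0.02 and −0.09. The summed linear signal of the granulocyte markers was 159 to 318 in Elk/Sap KO arrays, against 153 to 195 in Sap KO arrays. That of the B cell markers was 400 to 746 in Elk/Sap KO arrays, against 517 to 565 in Sap KO arrays, and that of the macrophage and dendritic cell markers 672 to 1794 in Elk/Sap KO arrays, against 1019 to 1494 in Sap KO arrays. The Elk/Sap KO ranges span the Sap KO ranges of the B cell and macrophage lists and reach above that of the granulocyte list. All 10 granulocyte markers had means at or below the highest Xist signal, as did 10 of the 12 B cell markers. Among 17 mature and innate T cell markers Klrd1, a natural killer receptor chain, fell near the Xist level (3.98, 3.53 and 3.85 in Elk/Sap KO arrays, against 4.80, 5.05 and 4.39 in Sap KO arrays; log2 −0.95 ± 0.17, adjusted p = 0.00915), while 9 of the 17 differences were above 0 and the median was 0.02 (−0.15 without mouse 2). Of 20 epithelial and stromal markers 15 had differences above 0, with a median of 0.34 (0.03 without mouse 2). The 1 called, Epcam, fell (log2 −0.65, adjusted p = 0.0203), and its second probe set differed by 0.36. Cd79a, a B cell receptor chain, was lower without mouse 2 (log2 −1.45, adjusted p = 0.00613) and read 4.16, 6.08 and 4.12 in Elk/Sap KO arrays, against 5.55, 5.73 and 5.51 in Sap KO arrays. The part of other cells in the results was not tested.

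The fit without mouse 2 called genes in which that array lay among or beyond the Sap KO arrays. The splicing regulator Raver1 read 6.13, 8.38 and 6.73 in Elk/Sap KO arrays, against 8.33, 7.74 and 8.35 in Sap KO arrays (log2 −1.71 without mouse 2, adjusted p = 0.017; −1.06 and 0.16 with it). Septin1, a cytoskeletal GTPase, read 6.46, 9.23 and 7.08 in Elk/Sap KO arrays, against 8.19, 7.74 and 8.53 in Sap KO arrays. Its mouse 2 value is the highest of the 6, and the difference is −1.38 without it (adjusted p = 0.0315) and −0.56 with it. Other falls were those of Ubl7 (−1.50), Mad1l1, a spindle checkpoint protein (−1.39), Gpr132, a G protein-coupled receptor of lymphocytes (−1.59), Anxa6 (−1.35; its 3 other probe sets differed by −1.28 to 0.25 with all arrays) and the mannosidase Man1b1 (−1.35). The last 3 were called with all arrays too, where the second Mad1l1 probe set differed the other way, by 0.64. Among rises in this fit were Ccdc88a, an actin-binding protein (1.37, adjusted p = 0.0269), Ehd2, an ATPase of caveolae (1.17, 0.0323), and the Mediator subunit Med18 (1.00, 0.00957).

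The same genotypes were compared after 30 min of anti CD3, in arrays that share mice but no array with the resting comparison. There 473 genes were called (2.6%), 396 as lower (2.18%) and 77 as higher (0.423%). Of the 369 genes called at rest, 365 (98.9%) had the same sign in stimulated cells, against 70.1% of all genes. Actb and dap moved with the groups here too. The Actb 3′ minus 5′ signal was 0.545 to 1.05 in stimulated Elk/Sap KO arrays, against 0.182 to 0.203 in stimulated Sap KO arrays. Their dap signal was 9.14 to 9.90, against 6.18, 9.08 and 6.45 in Sap KO mice 1, 2 and 3. The loss of Elk and these measures cannot be told apart in this agreement. The 160 genes called in both states make up 43.4% of the resting calls and 33.8% of the stimulated ones, and none was called in opposite directions. The median of the 304 lower genes was −0.60 in stimulated cells, against −0.78 at rest, and that of the 65 higher genes 0.41, against 0.66. Rbp7 read 5.86, 6.04 and 5.53 in stimulated Elk/Sap KO arrays, against 8.36, 7.72 and 8.33 in stimulated Sap KO arrays (log2 −2.33, adjusted p = 3.49e-05). Nmnat1 read 8.66, 8.58 and 8.64 in stimulated Elk/Sap KO arrays, against 10.71, 10.33 and 10.41 in stimulated Sap KO arrays (−1.85, 2.41e-06). Ap2b1, Rab5c and Bcat2 were also among the 5 largest stimulated falls (−2.01, −1.98 and −1.90). Of the positive selection genes 7 fell in stimulated cells, of the TCF-SRF immediate early genes 3 and of the MRTF-SRF genes 4, and none rose. Traf6, E2f5 and Pnmt were not called in stimulated cells (adjusted p 0.135, 0.0814 and 0.544). The difference between the resting and the stimulated effect was called for no gene by limma, with 361 at an unadjusted p under 0.05, and for no gene (684 at that level) with each mouse as a block, a fit chosen after seeing the data.

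Loss of Elk where Sap is present gave a smaller count. Between untreated Elk KO and wild-type arrays 18 genes were called (0.0989%), 14 as lower (0.077%) and 4 as higher (0.022%). Of the 369 genes called between Elk/Sap KO and Sap KO, 345 (93.5%) had the same sign there, against 58.8% of all genes, with a median of −0.37 over the lower and 0.23 over the higher genes. Of the 369, 12 were called in both, each as lower. These included Ap2b1 (log2 −2.10, adjusted p = 0.0147), Pnisr (−1.24, 0.0352) and Cfp. The 2 comparisons share no array, but Actb and dap move with Elk in both: Actb 3′ minus 5′ signal was 0.403 to 0.654 in Elk KO arrays, against 0.18 to 0.249 in wild-type arrays, and dap 9.44 to 9.84 in Elk KO arrays, against 6.18 to 9.37 in wild-type arrays. The loss of Elk and these measures cannot be told apart in the genes that share a sign.

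**Figure D5:**
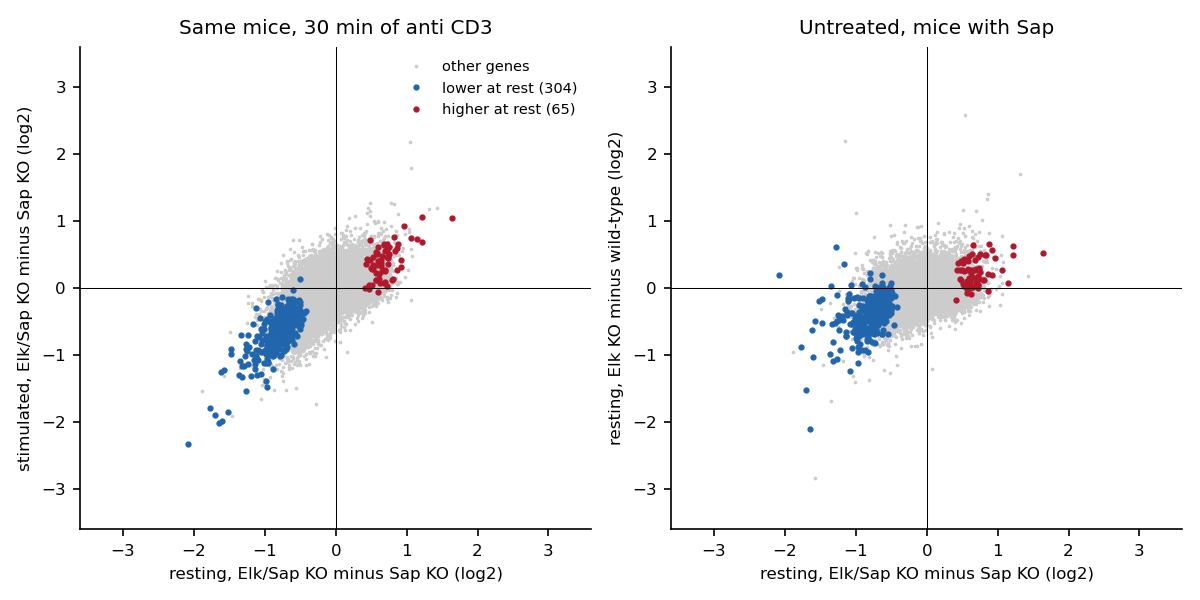
Log2 difference of each gene between resting Elk/Sap KO and Sap KO arrays (x axis) against that in stimulated arrays of the same mice (left, y axis) and that between resting Elk KO and wild-type arrays (right, y axis). Genes called at rest are blue (lower, 304) or red (higher, 65) and the others grey; 365 of the 369 keep their sign on the left and 345 on the right, where Rbp7 (0.20) does not.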

How the data were processed

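Messenger RNA of sorted DP thymocytes was measured on 24 one-colour Mouse430_2 arrays. The deposited series matrix holds log2 values that the authors made with RMA (affy), per the submitters' processing notes. Their versions and the genome build were not given in the sources used here. All values were used as deposited. RMA scales arrays to each other, so a general change in RNA amount is not measured; array medians over genes still ran from 5.48 to 5.77 (Elk/Sap KO mouse 2, untreated). Of 45101 probe sets, 34945 name 1 gene, 932 several and 9160 none, and 64 are controls. The brightest probe set stood for each of 18193 genes.

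A limma 3.58.1 (R 4.3.3) model with 8 group means was fitted to all 24 arrays, which share 1 estimate of spread. Untreated Elk/Sap KO arrays spread more widely than untreated Sap KO arrays (median SD over all genes 0.34 against 0.12). All p-values are two-sided, from limma's moderated test, adjusted by Benjamini-Hochberg over all genes; ± is the standard error. The script was tested on simulated data. Mice are the replicates. Genes and lists were chosen with earlier results of these data known. The naming rule took Elk1, Elk3, Elk4 and Srf, up to 12 called falls and 12 called rises with the largest difference and no overlap between groups, up to 10 more each way without mouse 2, up to 4 members of each list with the smallest p, and up to 5 each way in the other comparisons; clone-like symbols are not named, and the text names some of those it took. Ube4b, Lzic and list members called only without mouse 2 were chosen after their values were seen. Alternatives covered scaling, probe sets, filters, covariates, blocks and each array left out. Figures used matplotlib 3.10.9.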

Additional observations from a re-analysis of the deposited data

Results flagged for a closer look

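The effect of Elk loss at rest differed between mice without Sap and mice with Sap for 3 genes, in a direct test of the difference (Elk/Sap KO minus Sap KO, less Elk KO minus wild-type). For Gcsh it was −3.345 log2 (limma adjusted p = 0.00289), for Rbp7 −2.283 (adjusted p = 0.0126) and for Nmnat1 −1.328 (adjusted p = 0.0493). In Elk KO and wild-type arrays Rbp7 is below the highest Xist signal, so a fall could not be seen there, and its value does not measure how far the effects differ. Gcsh differed in opposite directions in the 2 pairs of genotypes. Wild-type arrays were the lowest for Gcsh, while Sap KO arrays were the highest for Rbp7 and Nmnat1.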

How the results depend on the processing

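The 369 resting calls ranged from 15 to 4675 when 1 of the 6 arrays was left out, the 473 stimulated calls from 20 (without Sap KO mouse 1) to 1377 (without Elk/Sap KO mouse 3), and the 3 calls of the difference between backgrounds from 1 to 4; the resting minus stimulated difference had 0 to 0. The resting count was 6112 with array weights (4548 stimulated, 3 for resting minus stimulated, 1555 between backgrounds), 626 with the mean of all probe sets, 1741 of 45037 over all probe sets, 712 among genes with a mean of at least 6 log2, 0 with the 6 arrays alone and 74 with the 5 other than Elk/Sap KO mouse 2. It was 1 with the Actb covariate, 24 with the dap class as covariate and 1 with high-dap arrays only. Without mouse 2, alternatives chosen after seeing the data, these 3 counts were 12, 32 and 2. It was 452 with arrays centred on their medians (71 higher, 381 lower), 262 after renewed quantile normalization (129 higher, 133 lower), 460 with the mouse as a random block and 370 with a trended, robust prior. With the replicate number as a block it was 431; same-numbered Elk/Sap KO and Sap KO mice are different animals, and their arrays' deviations correlated at −0.0921, −0.13 and −0.0548, so the number does not pair them. The log2 difference of Elk4, 0.00, was −0.0453 after centring, −0.052 with the dap covariate and −0.393 to 0.467 with 1 array left out; the log2 difference of Srf was 0.0823 after renewed quantile normalization and the log2 difference of Son −0.576 with the mean of probe sets. The cause was not tested. Signal near the Xist level limits what Elk1, Rbp7 (in Elk KO and wild-type arrays), Cfp, Usp18 and Klrd1 can show.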
